A study of Mus musculus with 6 samples.

Results

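The 31 genes described here carry glucose into the cell, break it down to pyruvate and lactate, or pass it through the pentose phosphate pathway, together with the regulator Hif1a. They were chosen by name and by role in these pathways, with no filter on their values, but with earlier results of these data known. Each of the 31 names was found once among the 13605 named genes of the deposited count table. All 31 also passed the filter on low counts and were among the 12789 genes tested.

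The counts come from mRNA sequencing of regulatory T cells (Tregs), the CD4 T cells that carry the transcription factor Foxp3 and restrain other immune cells, taken from the livers of untreated mice aged 14 months. The genotypes were Altre WT (wild type here) and Altre KO (knockout here), with 3 libraries each. Altre is the name of a long non-coding RNA. Strain, sex, the making of the knockout and the cells that carry it are not stated in the labels, nor is it stated that each library is a separate animal. P-values therefore measure the spread between these libraries, which may be technical. No row of the table carries the name Altre, so the knockout itself was not checked. CPM denotes read counts scaled for library size by edgeR's TMM method, and values listed for a genotype stand in the order of replicates 1, 2 and 3. Means are given ± SD over the 3 libraries of a genotype, and each log2 fold change sets knockout over wild type and carries its SE after ±. In bulk samples such as these, fewer cells of a type and less RNA per cell cannot be told apart.

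Glycolysis splits a glucose of 6 carbons into a pair of trioses and ends in pyruvate, which is either reduced to lactate and exported or burned in mitochondria. The pentose phosphate pathway leaves glycolysis at glucose 6-phosphate. Its oxidative arm makes NADPH, and its non-oxidative arm makes ribose for nucleotides and returns sugars to glycolysis. T cells raise glycolysis when they are activated, under control of MYC, mTOR and the oxygen-regulated transcription factor HIF-1, whereas Tregs are known for relying less on glycolysis and more on mitochondrial oxidation than conventional effector T cells.

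Liver Tregs of both genotypes carried transcripts for every step. Hk2, Pfkm and Aldoc were a small part of their isozyme families, whereas lactate dehydrogenase and the transporter pairs were divided more evenly between their genes. Per kilobase of annotated exon, a scale on which genes can be compared, the highest mean levels over the 6 libraries were those of the aldolase gene Aldoa (370.5 CPM per kb), the pyruvate kinase gene Pkm (319), the lactate dehydrogenase gene Ldha (252) and the enolase gene Eno1 (246). Each of these 4 lay above the 98th percentile of genes with an exon length, on the same scale (from 98.3 for Eno1 to 98.9 for Aldoa). The lowest was the hexokinase gene Hk2 at 0.817 CPM per kb, followed by the phosphofructokinase gene Pfkm at 1.94, the ribose-5-phosphate isomerase gene Rpia at 2.23 and Pfkfb3 at 2.98. Entry of glucose into the pathway was represented at a lower transcript level than Aldoa, Pkm, Ldha and Eno1, with Slc2a3 at 23.5 and Hk1 at 18.3 CPM per kb. Exon lengths are those of GENCODE M21 and may differ from the transcripts present in these cells.

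**Figure D1:**
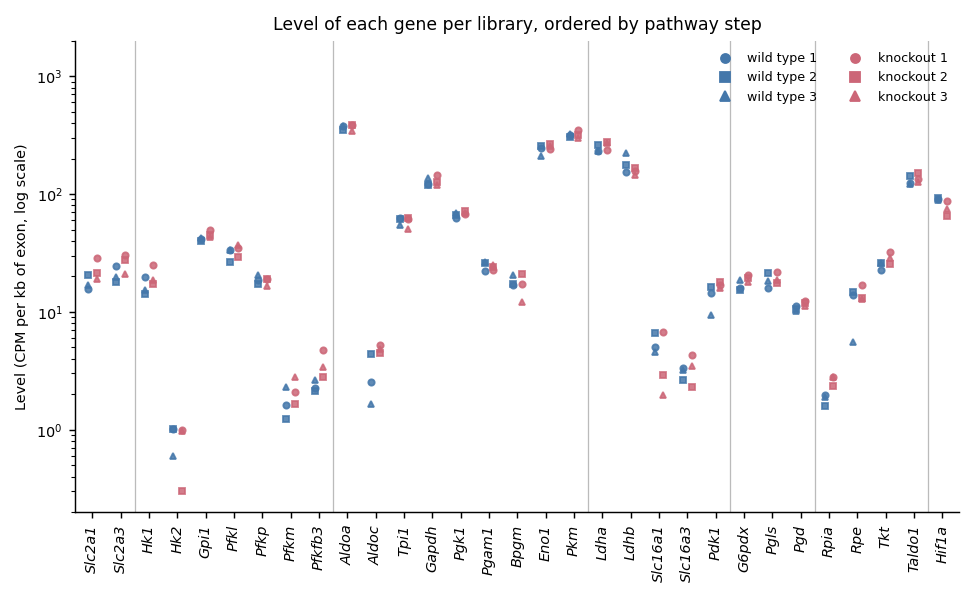
Level of each of the 31 genes in CPM per kb of exon (log scale), ordered by pathway step, with 1 point per library, wild type in blue and knockout in red. The points of the genotypes lie close together for most genes, Aldoa is the highest at a mean of 370.5 and Hk2 the lowest at 0.817.

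No member passed an adjusted p of 0.05 between genotypes, and neither did any of the 12789 genes tested (0 called, 0% of genes; edgeR quasi-likelihood test, Benjamini-Hochberg), with 744 genes under an unadjusted p of 0.05. DESeq2 called 49 genes and limma-voom 0, with 0 members in either. The smallest adjusted p of a member was 0.842, for Pfkfb3. Of the 31 members 23 had their higher mean in knockout and 8 in wild type, where 50.8% of all genes tested were higher, and the median log2 fold change (knockout over wild type) was 0.11 for the members and 0.0039 for all genes. With unadjusted p-values 3 members lay under 0.05 on the higher side (Pfkfb3, Rpia and Aldoc), where 2.72% of all genes did, and 0 on the lower side, where 3.10% of all genes did. Leaving out 1 library gave 1 (without wild-type replicate 3) to 4 (without wild-type replicate 1) members under 0.05 in either direction. The share of all genes under 0.05 was 6.92% without wild-type replicate 3 and 5.43% without wild-type replicate 1. The 3 knockout libraries all lay above the 3 wild-type libraries for 5 members, against 5.60% of all genes, and all below for 1 member, against 4.67%. Those 5 were Pfkfb3, Rpia, Aldoc, Gpi1 and Pgd, and the 1 was Hif1a. Not every library contributed alike, since knockout replicate 1 was the highest of the 6 libraries for 16 members (51.6%, against 19.4% of all genes) and the lowest for 0. Without it 18 members were higher and 13 lower, and the median log2 fold change was 0.089.

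**Figure D2:**
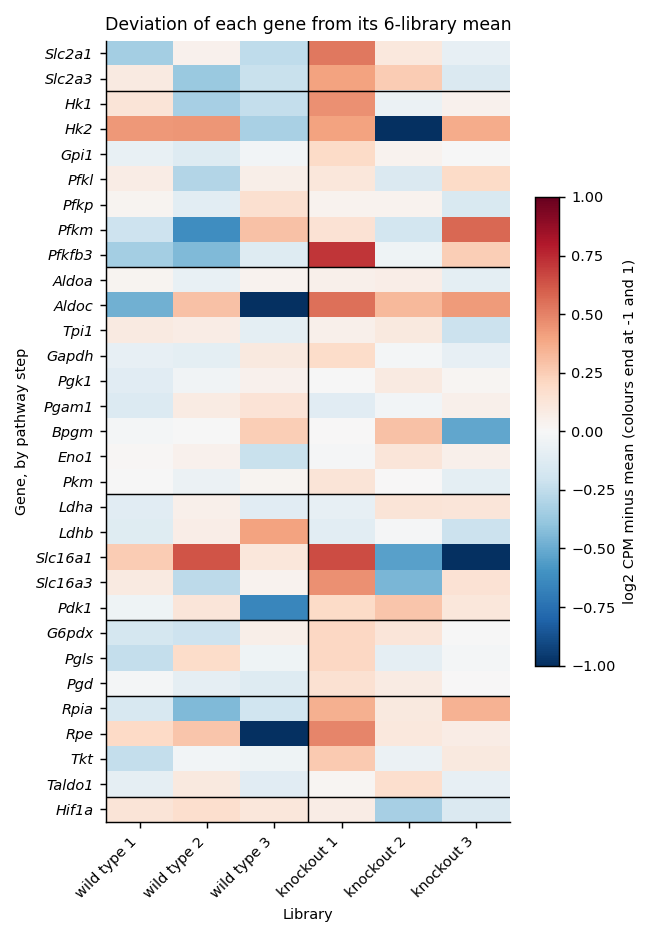
Deviation of log2 CPM from the mean of the 6 libraries for each of the 31 genes (rows, by pathway step) in each library (columns), red above and blue below the mean. Knockout replicate 1 is the highest library for 16 of the genes, and the deep blue cells are single low libraries such as wild-type replicate 3 for Aldoc and Rpe.

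At glucose uptake, the transporters Slc2a1 (GLUT1, the widespread carrier that T cells raise on activation) and Slc2a3 (GLUT3, a carrier of high affinity) were both present. Slc2a1 (chromosome 4, 119108711 to 119137983 on GRCm38) had 55.2, 72.1 and 58.8 CPM in the wild-type libraries and 101, 75.4 and 66.1 CPM in those of the knockout. Slc2a3 (chromosome 6, 122727809 to 122801640) had 178, 129 and 144 CPM in the wild-type libraries and 221, 199.5 and 152 CPM in those of the knockout. For both genes knockout replicate 1 was the highest library, and the genotypes overlapped. Their log2 fold changes were 0.38 ± 0.19 (SE; 95% interval -0.03 to 0.80) and 0.34 ± 0.17 (SE; -0.04 to 0.72), with adjusted p-values of 0.878 and 0.880 (edgeR). Without knockout replicate 1 they were 0.19 and 0.22. Per kilobase the transporters were at similar levels, the ratio of Slc2a3 to Slc2a1 running from 0.868 to 1.56 over the libraries. That similarity depends on the annotated exon lengths, 3506 bases for Slc2a1 and 7245 for Slc2a3. In CPM not divided by exon length, Slc2a1 made up 29.5% (wild type) and 29.7% (knockout) of the pair.

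Hexokinase, which traps glucose in the cell as glucose 6-phosphate, was represented by Hk1, the isozyme of most resting tissues, far more than by Hk2, the inducible isozyme of muscle, tumours and activated T cells. Hk1 (chromosome 10, 62268855 to 62379908) had 169, 122 and 130.2 CPM in the wild-type libraries and 211, 148 and 158 CPM in those of the knockout; the genotypes overlapped, with a log2 fold change of 0.30 ± 0.17 (SE) that was 0.13 without knockout replicate 1. Hk2 (chromosome 6, 82725025 to 82774454) had 6.07, 6.10 and 3.58 CPM in the wild-type libraries and 5.92, 1.79 and 5.80 CPM in those of the knockout. Hk2 was lowest in knockout replicate 2, at 45 counts, and its fold change was poorly determined (95% interval -1.30 to 0.86). Per kilobase Hk1 exceeded Hk2 by 14.0-fold to 57.7-fold in every library.

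Gpi1, which turns glucose 6-phosphate into fructose 6-phosphate, had 267, 257 and 276 CPM in the wild-type libraries and 321, 288 and 279 CPM in those of the knockout (log2 fold change 0.15 ± 0.11, SE; adjusted p = 0.938, edgeR). The genotypes did not overlap, but wild-type replicate 3 and knockout replicate 3 were nearly equal, and the log2 fold change was 0.089 without knockout replicate 1. Phosphofructokinase, the committed step of glycolysis, came from the liver-type gene Pfkl and the platelet-type gene Pfkp. Pfkl had 226, 175 and 223 CPM in the wild-type libraries and 232, 193.5 and 245 CPM in those of the knockout, and Pfkp had 252, 229.2 and 276 CPM in the wild-type libraries and 252.6, 253.1 and 223 CPM in those of the knockout. Neither separated the genotypes, with log2 fold changes of 0.10 ± 0.14 and -0.05 ± 0.12 (SE). The muscle-type gene Pfkm had 5.41, 4.08 and 7.68 CPM in the wild-type libraries and 6.94, 5.50 and 9.34 CPM in those of the knockout, so that Pfkl exceeded it 13.1-fold to 21.5-fold per kilobase.

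Pfkfb3 makes fructose 2,6-bisphosphate, a potent activator of phosphofructokinase, and had the smallest p of the 31 genes. It lies on chromosome 2, 11471433 to 11554077 and had 17.1, 16.0 and 19.8 CPM in the wild-type libraries and 35.6, 21.1 and 25.7 CPM in those of the knockout. Every knockout library lay above every wild-type library, with knockout replicate 2 close to wild-type replicate 3 and knockout replicate 1 highest. The means were 17.6 ± 1.99 (wild type) and 27.5 ± 7.44 CPM (knockout) (SD, n = 3 libraries per genotype), a log2 fold change of 0.64 ± 0.24 (SE; 95% interval 0.11 to 1.16). Over the settings tried the log2 fold change ran from 0.41 to 0.78, and without knockout replicate 1 it was 0.41. Glucose uptake and the hexose steps together hold 9 genes, of which 7 had a higher mean in knockout. Their median log2 fold change was 0.30, and it was 0.13 without knockout replicate 1.

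**Figure D3:**
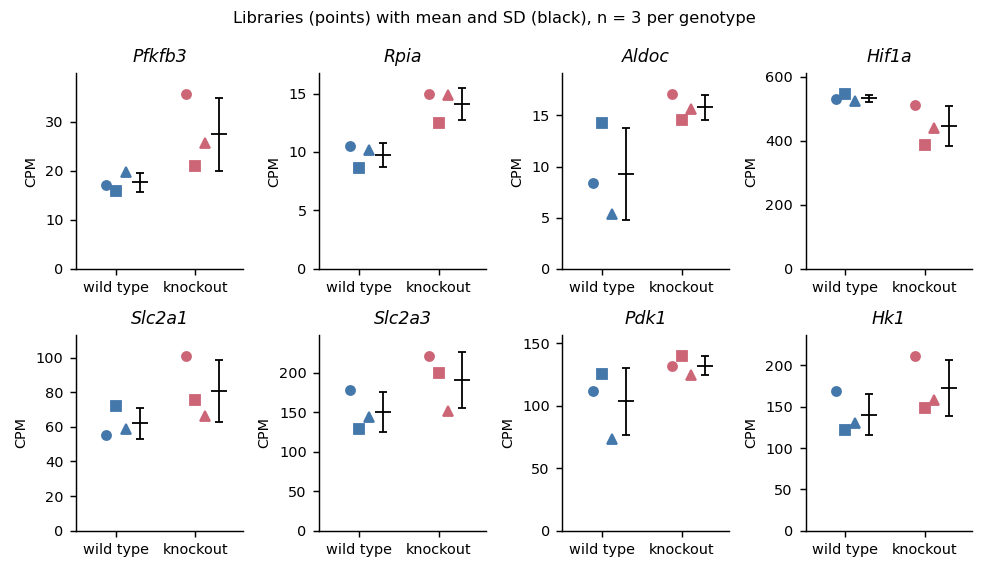
CPM per library (points; circle, square and triangle for replicates 1, 2 and 3) with mean and SD (black), n = 3 libraries per genotype, for the 8 genes with the smallest unadjusted p. Pfkfb3, Rpia and Aldoc lie higher and Hif1a lower in all 3 knockout libraries, while the other 4 overlap.

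The 9 genes of the triose steps included the highest levels of the set, and their median log2 fold change was 0.02, with 6 genes higher and 3 lower in knockout. Without knockout replicate 1 the median was -0.02, with 3 higher and 6 lower. Aldolase splits fructose 1,6-bisphosphate into the trioses, and its main gene Aldoa had 1097, 1024 and 1103 CPM in the wild-type libraries and 1114, 1128 and 1005 CPM in those of the knockout, a log2 fold change of 0.01 ± 0.10 (SE; 95% interval -0.20 to 0.22). Triose phosphate isomerase (Tpi1) averaged 164 ± 11.7 (wild type) and 159.9 ± 18.1 CPM (knockout), phosphoglycerate kinase (Pgk1) 148 ± 7.90 (wild type) and 156 ± 5.27 CPM (knockout), and phosphoglycerate mutase (Pgam1) 49.3 ± 4.80 (wild type) and 47.2 ± 2.58 CPM (knockout). Gapdh, which makes the NADH of glycolysis, averaged 519 ± 40.0 (wild type) and 539 ± 54.0 CPM (knockout) and Eno1 1275 ± 125 (wild type) and 1372 ± 65.9 CPM (knockout). The last enzyme, Pkm, which yields pyruvate, averaged 1584 ± 48.3 (wild type) and 1609.7 ± 128 CPM (knockout), a log2 fold change of 0.02 ± 0.10 (SE). For these 6 genes the genotypes overlapped, and the other log2 fold changes were -0.04 ± 0.13 for Tpi1, 0.05 ± 0.11 for Gapdh, 0.07 ± 0.11 for Pgk1, -0.06 ± 0.15 for Pgam1 and 0.11 ± 0.10 for Eno1. Gapdh has 73 near-identical copies among GENCODE M21 transcripts, 70 of them pseudogenes, and Eno1 has the near-identical Eno1b, also a row of the table, so the division of their reads is uncertain. Bpgm, which diverts a triose phosphate to 2,3-bisphosphoglycerate, mostly in red cells, averaged 65.1 ± 7.04 (wild type) and 60.1 ± 16.3 CPM (knockout). The log2 fold change of Bpgm was -0.12 ± 0.20 (SE). Summed markers of erythroid cells were 107, 234 and 70.4 CPM in the wild-type libraries and 78.1, 87.0 and 84.2 CPM in those of the knockout, and their part in the level of Bpgm was not tested.

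Aldoc, the brain-type aldolase, stood apart from the other triose genes, at a low level. It (chromosome 11, 78322968 to 78327781) had 8.35, 14.2 and 5.35 CPM in the wild-type libraries and 17.1, 14.6 and 15.7 CPM in those of the knockout. Wild-type replicate 2 lay just under the lowest knockout library, and wild-type replicate 3 was far lower. The log2 fold change was 0.76 ± 0.34 (SE; 95% interval 0.01 to 1.52; adjusted p = 0.849, edgeR). Without wild-type replicate 3 the log2 fold change was 0.47, and without wild-type replicate 2 it was 1.19. Aldoc made up at most 1.37% of aldolase per kilobase in any library.

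**Figure D4:**
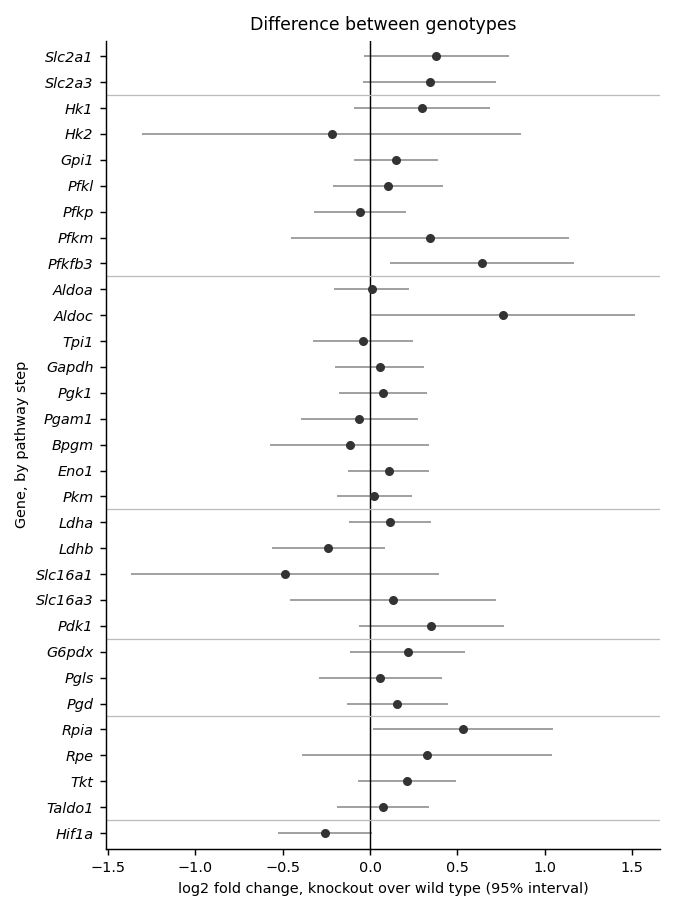
Log2 fold change of knockout over wild type for each of the 31 genes with its 95% interval from edgeR, by pathway step. The intervals of Pfkfb3, Rpia and Aldoc lie above 0 before adjustment, those of the triose genes Aldoa and Pkm are narrow and centred near 0, and that of Hif1a ends just above 0 at 0.0096.

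Lactate dehydrogenase interconverts pyruvate and lactate, Ldha encoding the subunit of glycolytic tissues and Ldhb that of oxidative tissues such as heart. Ldha (chromosome 7, 46841475 to 46855627) had 769.6, 863 and 771 CPM in the wild-type libraries and 788, 909 and 905 CPM in those of the knockout. Ldhb (chromosome 6, 142490249 to 142507957) had 243, 276 and 349 CPM in the wild-type libraries and 246, 262 and 228 CPM in those of the knockout. Both overlapped between genotypes, Ldha with a log2 fold change of 0.11 ± 0.11 and Ldhb of -0.24 ± 0.14 (SE). Taken within each library, however, the Ldhb share of lactate dehydrogenase per kilobase was 39.9, 40.3 and 48.8% in wild type and 39.7, 37.8 and 34.7% in knockout. Each knockout library was below each wild-type library, although knockout replicate 1 came close to wild-type replicates 1 and 2. The means were 43.0 ± 5.03% and 37.4 ± 2.53% (SD, n = 3), and the exact two-sided permutation test gave p = 0.1, the smallest that 3 against 3 libraries allow, or 0.64 adjusted over the 8 shares tested. The difference of -5.63 percentage points was -2.73 without wild-type replicate 3, and the log2 fold change of Ldhb was then -0.094.

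The shares of the other families overlapped between genotypes, with exact p-values of 0.2 or more. Slc2a1 made up 46.1 ± 7.26% of the glucose transporters in wild type and 46.6 ± 2.45% in knockout. Hk2 made up 5.12 ± 1.46% and 3.51 ± 1.66% of the hexokinases, and Pfkl 60.2 ± 1.88% and 62.1 ± 3.44% of the phosphofructokinases. These shares are per kilobase, and the order of Pfkl and Pfkp depends on the exon lengths. In CPM not divided by exon length, Pfkl made up 44.6% (wild type) and 47.1% (knockout), and Pfkp 54.2% and 51.4%. The other shares are those of Pfkp, Pfkm, Aldoc and Slc16a3, the last ranging from 28.6% to 41.3% in wild type and from 39.2% to 63.8% in knockout.

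**Figure D5:**
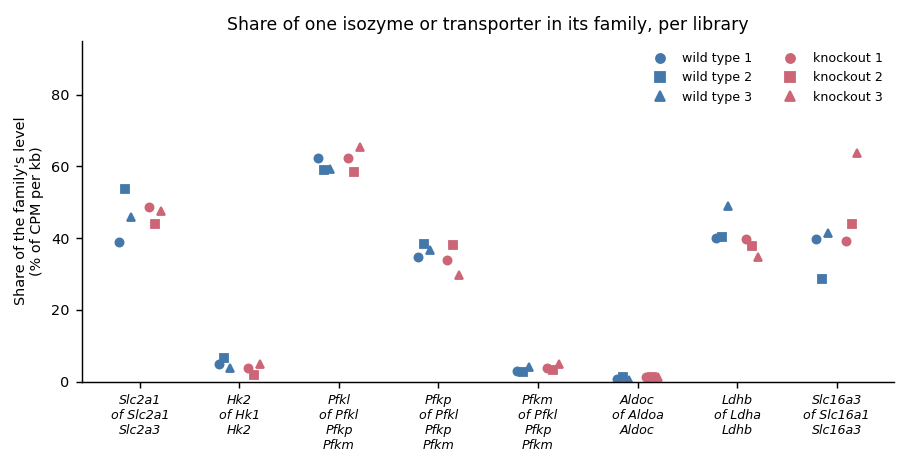
Share of 1 isozyme or transporter in the summed level of its family (% of CPM per kb), 1 point per library. The Ldhb share is lower in all 3 knockout libraries, from 34.7% to 39.7%, than in the 3 wild-type libraries, from 39.9% to 48.8%, and the other shares overlap.

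Lactate leaves the cell through the monocarboxylate transporters, Slc16a1 (MCT1, which works in both directions) and Slc16a3 (MCT4, an exporter of glycolytic cells). Slc16a1 had 22.5, 29.1 and 20.3 CPM in the wild-type libraries and 29.6, 13.0 and 8.76 CPM in those of the knockout. Knockout replicate 1 was the highest library of all and knockout replicates 2 and 3 the lowest, so the log2 fold change of -0.49 ± 0.39 (SE) went to -1.14 without that library, still not called (adjusted p = 0.234, edgeR). Slc16a3 had 17.9, 14.0 and 17.2 CPM in the wild-type libraries and 23.0, 12.2 and 18.6 CPM in those of the knockout, with a log2 fold change of 0.13 ± 0.26 (SE) that was -0.08 without knockout replicate 1. Pdk1, the kinase that keeps pyruvate out of the mitochondrion by switching off pyruvate dehydrogenase, had 112, 125 and 73.5 CPM in the wild-type libraries and 132, 139.7 and 125 CPM in those of the knockout. The knockout libraries were close to each other, wild-type replicate 3 was far lower, and wild-type replicate 2 lay just above knockout replicate 3 (log2 fold change 0.35 ± 0.19, SE; adjusted p = 0.894, edgeR). Without wild-type replicate 3 the log2 fold change of Pdk1 was 0.14.

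Each of the 7 genes of the pentose phosphate pathway was higher in knockout by its mean, the median log2 fold change being 0.21, and 0 of them were called. The count was 6 of 7 without wild-type replicate 1, without wild-type replicate 3, without knockout replicate 1 and without knockout replicate 2. Their median was 0.12 when wild-type replicate 3 was left out, and 0.13 when knockout replicate 1 was. In the oxidative arm, G6pdx, the rate-limiting dehydrogenase that makes NADPH, had 48.7, 47.6 and 57.3 CPM in the wild-type libraries and 63.5, 59.9 and 55.0 CPM in those of the knockout. Pgd, the second NADPH-making dehydrogenase, had 71.6, 68.1 and 66.2 CPM in the wild-type libraries and 80.5, 76.6 and 72.5 CPM in those of the knockout. The genotypes overlapped for G6pdx and were narrowly apart for Pgd, with log2 fold changes of 0.22 ± 0.15 and 0.16 ± 0.13 (SE). Pgls, the lactonase between them, averaged 69.7 ± 10.4 (wild type) and 72.6 ± 7.97 CPM (knockout), a log2 fold change of 0.06 ± 0.16 (SE). A stretch of 20.6% of its exon length is shared with the neighbouring Fam129c, so its count is uncertain.

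In the non-oxidative arm the smallest p was that of Rpia, which makes ribose 5-phosphate. Rpia (chromosome 6, 70765720 to 70792232) had 10.5, 8.59 and 10.2 CPM in the wild-type libraries and 14.9, 12.5 and 14.9 CPM in those of the knockout. All knockout libraries lay above all wild-type libraries, with a log2 fold change of 0.53 ± 0.23 (SE; 95% interval 0.02 to 1.05) and an adjusted p of 0.849 (edgeR). It kept its direction in all 12 alternative settings, from 0.44 to 0.60. Tkt, a transketolase that returns pentoses to glycolysis, had 166, 192 and 191 CPM in the wild-type libraries and 236, 189 and 210.3 CPM in those of the knockout, with overlap and a log2 fold change of 0.21 ± 0.13 (SE) that was 0.13 without knockout replicate 1. Its partner Taldo1, the transaldolase, averaged 282 ± 23.3 (wild type) and 296 ± 26.3 CPM (knockout), a log2 fold change of 0.07 ± 0.12 (SE). Rpe, the ribulose-phosphate epimerase, averaged 35.5 ± 15.9 (wild type) and 44.6 ± 7.44 CPM (knockout) and had its lowest library in wild-type replicate 3. Its log2 fold change of 0.33 ± 0.32 (SE) without that library was -0.02. Its exons share 17.9% of their length with Kansl1l on the opposite strand.

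Hif1a, the oxygen-regulated subunit of HIF-1, was the member whose 3 knockout libraries all lay below wild type. It (chromosome 12, 73901375 to 73947530) had 531, 546 and 525 CPM in the wild-type libraries and 512, 387 and 439.8 CPM in those of the knockout. The wild-type libraries were tightly grouped, and knockout replicate 1 came close to them. The log2 fold change was -0.26 ± 0.12 (SE; 95% interval -0.53 to 0.01; adjusted p = 0.865, edgeR), and it ran from -0.37 to -0.18 over the settings tried. HIF-1 is controlled mainly by degradation of its protein, which these data do not measure. Of 12 genes of oxygen sensing, 3 were higher and 9 lower in mean, 0 were called, and 1 had an unadjusted p under 0.05. That gene was Vhl, which marks HIF for degradation, at 49.3, 38.6 and 49.8 CPM in the wild-type libraries and 35.0, 34.0 and 33.7 CPM in those of the knockout, without overlap (log2 fold change -0.42 ± 0.16, SE; adjusted p = 0.842, edgeR). Among the other genes of this list with the smallest p, the HIF hydroxylase gene Egln1 averaged 22.2 ± 0.965 (wild type) and 25.7 ± 0.668 CPM (knockout), Hif1an 33.5 ± 6.37 (wild type) and 41.6 ± 11.4 CPM (knockout) and Egln3 10.8 ± 5.34 (wild type) and 8.27 ± 0.514 CPM (knockout). Of 15 HIF-1 targets outside glycolysis that were tested, 6 were higher and 9 lower, the median log2 fold change being -0.05, 0 called and 1 under an unadjusted p of 0.05. The oxidase gene Ero1l (log2 fold change -0.63 ± 0.24, SE) had the smallest p, followed by Ndrg1 (0.58 ± 0.37), Kdm3a (0.25 ± 0.18) and Ddit4 (-0.50 ± 0.37).

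HIF-1 binds the letters ACGTG or GCGTG, and promoters are shown for the 5 members with the smallest p to set these letters beside the values. Each run is the 250 bases before the first listed start in RefSeq (GRCm38.p6), read 5′ to 3′ on the gene's strand, and capitals mark ACGTG or GCGTG on either strand, including their overlap with the E-box CACGTG that MYC binds.
Pfkfb3 (chr2:11553930-11554179, minus strand): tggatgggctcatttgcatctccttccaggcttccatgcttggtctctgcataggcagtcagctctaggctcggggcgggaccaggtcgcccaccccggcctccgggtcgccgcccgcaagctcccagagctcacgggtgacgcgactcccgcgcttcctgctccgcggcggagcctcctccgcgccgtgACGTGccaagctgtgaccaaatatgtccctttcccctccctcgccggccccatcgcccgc
Rpia (chr6:70792176-70792425, minus strand): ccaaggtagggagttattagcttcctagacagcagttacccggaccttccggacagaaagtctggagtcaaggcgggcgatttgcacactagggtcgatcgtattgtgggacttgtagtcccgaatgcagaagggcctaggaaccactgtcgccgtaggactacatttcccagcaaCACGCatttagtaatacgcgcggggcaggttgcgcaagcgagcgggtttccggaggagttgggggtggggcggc
Aldoc (chr11:78322823-78323072, plus strand): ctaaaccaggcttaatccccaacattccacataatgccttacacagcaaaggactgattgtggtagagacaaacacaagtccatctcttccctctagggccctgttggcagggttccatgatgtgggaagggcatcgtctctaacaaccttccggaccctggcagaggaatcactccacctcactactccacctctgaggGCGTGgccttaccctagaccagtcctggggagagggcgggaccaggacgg
Hif1a (chr12:73907617-73907866, plus strand): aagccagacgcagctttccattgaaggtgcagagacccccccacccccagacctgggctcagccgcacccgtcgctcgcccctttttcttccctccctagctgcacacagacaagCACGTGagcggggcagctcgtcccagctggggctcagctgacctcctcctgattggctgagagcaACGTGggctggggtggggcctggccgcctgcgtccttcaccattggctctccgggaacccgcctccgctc
Slc2a1 (chr4:119108495-119108744, plus strand): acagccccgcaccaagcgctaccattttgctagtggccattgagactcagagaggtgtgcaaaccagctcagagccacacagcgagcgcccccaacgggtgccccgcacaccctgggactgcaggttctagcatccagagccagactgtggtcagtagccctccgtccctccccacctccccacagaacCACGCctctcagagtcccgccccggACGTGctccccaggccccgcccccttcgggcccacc

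Each of these 5 windows holds at least 1 match, among them those of Pfkfb3, Rpia and Aldoc, with higher means in knockout, and that of Hif1a, with a lower one. Over the 44 windows found for 30 members (Slc2a3 had none listed), 77.3% held a match, against 53.8% of 12855 windows of genes in the count table and 38.6% of all 32851 windows, with median GC contents of 60.4%, 59.2% and 52.4%. Some windows of the same gene overlap and hold the same match. Counted by gene, 86.7% of the 30 members had a match, against 59.5% of 10090 genes in the count table and 41.5% of all 27025 genes. Gpi1, Tpi1, Bpgm and Rpe had no match in their windows. A match shows only that these letters are present.

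In lists of related genes outside the 31, 0 genes were called. Of 15 tested among 26 other enzymes of glycolysis and gluconeogenesis, 10 had higher means in knockout and 5 lower, with 1 under an unadjusted p of 0.05. Eno3, the muscle enolase, had the smallest p of that list, at 8.04, 15.8 and 13.5 CPM in the wild-type libraries and 26.1, 26.7 and 18.9 CPM in those of the knockout (log2 fold change 0.94 ± 0.28, SE; adjusted p = 0.842, edgeR), without overlap. Pgam5, a mitochondrial phosphatase, averaged 10.4 ± 0.404 (wild type) and 13.3 ± 0.893 CPM (knockout), and the phosphoglucomutase gene Pgm1 25.9 ± 6.19 (wild type) and 33.1 ± 7.77 CPM (knockout). Pgam2, under 1 CPM in both genotypes, averaged 0.735 ± 0.217 (wild type) and 0.219 ± 0.178 CPM (knockout). It was lower in knockout without overlap (log2 fold change -1.71 ± 0.97, SE). Of 19 tested among 21 regulators of flux, 13 were higher and 6 lower, with 2 under an unadjusted p of 0.05, Tigar and Txnip. Tigar, which lowers fructose 2,6-bisphosphate and so acts against Pfkfb3, had 6.83, 3.96 and 6.57 CPM in the wild-type libraries and 7.49, 10.5 and 11.8 CPM in those of the knockout, also without overlap (log2 fold change 0.78 ± 0.32, SE). Txnip, which restrains glucose uptake, averaged 150.0 ± 21.9 (wild type) and 187 ± 17.6 CPM (knockout), the pyruvate dehydrogenase phosphatase gene Pdp2 32.0 ± 5.04 (wild type) and 41.0 ± 2.90 CPM (knockout) and the pyruvate dehydrogenase subunit gene Pdha1 134 ± 14.0 (wild type) and 155 ± 14.8 CPM (knockout). Pfkfb3 and Tigar, which act in opposite directions on fructose 2,6-bisphosphate, both had higher means in knockout. Of 11 genes of pentose phosphate and ribose use, 8 were higher and 3 lower, the median log2 fold change being 0.01 and 0 under an unadjusted p of 0.05. The smallest p-values after Pgm1 were those of H6pd (0.33 ± 0.31), Shpk (0.50 ± 0.49) and Rbks (-0.22 ± 0.25, log2 fold change with SE).

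The authors' deposited table likewise calls 0 of the 31 members at an adjusted p of 0.05, where it calls 1.81% of its genes. Its smallest adjusted p among them is 0.251, for Pdk1, with a log2 fold change (knockout over wild type) of 0.38. At an unadjusted p under 0.05 the authors' deposited table holds 8 of the 31 members, against 9.76% of its genes. Its Wald scores are closest to a DESeq2 fit with the replicate number as a term (correlation 0.9996, against 0.931 for genotype only). The main test here had no such term, so the 8 members are not counted under the same model as its 3. In the authors' deposited table Pfkfb3 has a log2 fold change of 0.61, Hk1 of 0.29 and Hif1a of -0.27.

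Total counts ran from 25315425 to 30870786 per library. All 11 T cell and Treg markers were present, Cd3e at 1439 ± 167 (wild type) and 1562 ± 307 CPM (knockout) and Foxp3 at 79.2 ± 7.91 and 108 ± 32.5 CPM. Over that list 5 markers were higher and 6 lower by their means in knockout, Cd3d, Cd3g, Ikzf2, Tnfrsf18, Trac and Cd2 being the lower ones, with a median log2 fold change of -0.0034. Their summed level was 12166, 12690.3 and 14932 CPM in the wild-type libraries and 13442, 13239 and 12088 CPM in those of the knockout. Of 17 macrophage and Kupffer cell markers 16 were in the table (Clec4f was not), and 15 of them had a higher mean in knockout, 8 of these with an unadjusted p under 0.05. Their summed level was 221 to 247 CPM in the wild-type libraries, against 269, 394 and 407 CPM in knockout replicates 1, 2 and 3. Summed B cell markers were 2780, 2819 and 3828 CPM in the wild-type libraries and 3224, 3064 and 2419 CPM in those of the knockout. For CD8 T, NK and gamma delta T cell markers the sums were 107, 123 and 285 CPM (wild type) and 153, 159 and 135 CPM (knockout). Of 12 hepatocyte markers 1 was in the table, at 0.702 to 2.55 CPM, and Alb was not. The part of such cells in the values of the 31 genes was not tested.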

How the data were processed

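RNA-seq reads of 6 liver Treg libraries were reduced by the authors to a deposited table of counts per gene, whole numbers with no normalization. Tools named in the submitters' processing notes are STAR, cutadapt and DESeq2, with mm10 as the build and no roles. Which program counted reads, with which annotation and whether by strand, is not given in the sources used here. The same deposited table also holds the authors' comparison, per the file headers: a mean normalized count (a signal), a log2 fold change and its standard error, the Wald score, and a p-value with its adjusted p-value. In DESeq2 1.42.0, the Wald score correlated with that of a fit with the replicate number as a term at 0.9996 and with that of a genotype-only fit at 0.931.

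Of 13623 rows, 18 had dates in place of gene names (0.294% to 0.308% of counts) and were left out, leaving 13605. Genes low in count were removed with filterByExpr (12789 tested). The main test was edgeR 4.0.16 (R 4.3.3) quasi-likelihood on genotype with TMM scaling and Benjamini-Hochberg adjustment over all tested genes. Shares of isozymes were compared per library with exact two-sided permutation tests (SciPy 1.17.1). Total counts were 25315425 to 30870786 per library, and a chi-square of 39.2 to 70.6 per gene between libraries of 1 genotype exceeded what counting alone gives. Levels per kilobase use GENCODE M21 exon lengths, near-identical copies were sought with BLAST 2.17.0 (at least 95% over 500 bases), and promoters are RefSeq's. A run of the test on simulated counts served as a check of the code. It does not show the power of the test at folds as small as those of the members.

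The 31 genes, the other lists and the tests were chosen with earlier results of these data known. The 14 members with the smallest p and all genes of isozyme families are given by library, and the other members by mean and fold change. Alternatives were RLE scaling, no filter, DESeq2, limma-voom 3.58.1, a replicate block and leaving out each library.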

Additional observations from a re-analysis of the deposited data

How the results depend on the processing

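None of the 31 members was called under the main settings or any of the 12 alternatives (RLE scaling, no filter, DESeq2, limma-voom, edgeR and DESeq2 with a replicate block, and 6 fits each without 1 library). The smallest adjusted p of a member was 0.234 (Slc16a1, without knockout replicate 1), and the median log2 fold change ran from 0.089 to 0.14. The count of genes called over the whole table, 0 in the main test, was 49 with DESeq2, 16 with edgeR and 244 with DESeq2 when the replicate block was added, and 0 to 1 when 1 library was left out. With the replicate block 7 members (edgeR) and 8 (DESeq2) had an unadjusted p under 0.05, against 3 without it in either tool. The share of all genes under 0.05 was also larger with the block, 8.62% against 5.82% in edgeR and 9.52% against 6.95% in DESeq2. Same-numbered libraries deviated together only weakly (correlations of 0.108, 0.0823 and 0.0239), although each library correlated best with its own number. The labels do not say what the number stands for, so whether the libraries are paired is not known. The main test has no term for it, and the replicate block is given as an alternative.

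Of the members, 19 kept their direction under every alternative and 12 turned when 1 library was left out. Their log2 fold changes without 1 library ran over these ranges: Hk2 -0.46 to 0.14, Pfkl -0.017 to 0.18, Pfkp -0.13 to 0.0047, Aldoa -0.034 to 0.062, Tpi1 -0.11 to 0.054, Gapdh -0.028 to 0.11, Pkm -0.037 to 0.077, Slc16a3 -0.085 to 0.33, Bpgm -0.33 to 0.076, Pgls -0.039 to 0.17, Rpe -0.017 to 0.54 and Taldo1 -0.0089 to 0.13. Outside the members, Rbks ran from -0.41 to 0.014 and Egln3 from -0.73 to 0.0065, and the difference in the Slc2a1 share ran from -3.09 to 4.17 percentage points. The cause was not tested. With 3 libraries a genotype, the 95% interval of the log2 fold change ran from -0.20 to 0.22 for the abundant Aldoa and from -1.30 to 0.86 for the scarce Hk2.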
